A study of Mus musculus with 14 samples.

Results

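The data described here are the H3K27ac peaks of mouse muscle stem cells (MuSCs) that had been stimulated with BMP6 or with its vehicle. All peaks of both H3K27ac lists were taken, 78050 after BMP6 and 67790 after vehicle, or 145840 of the 175565 peaks in the 6 lists of the series. The other lists of the series hold peaks of pSMAD1/5/9 and SMAD4, profiled in the same cells.

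H3K27ac is the acetylation of lysine 27 of histone H3, written by the acetyltransferases p300 and CBP at active promoters and enhancers. BMP6 is a ligand of the bone morphogenetic protein family. Its receptors phosphorylate SMAD1, SMAD5 and SMAD9, which join SMAD4, enter the nucleus and bind regulatory DNA, where they can recruit p300 and CBP. In MuSCs, BMP signalling is known to sustain the expansion of activated cells and to hold back terminal differentiation, with the ID proteins as its classical targets.

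Protein-DNA contacts were profiled by CUT&Tag, in which an antibody tethers a transposase that inserts sequencing adapters around the bound chromatin. MuSCs were sorted by flow cytometry for green fluorescence from female C57BL/6N(Tg(Pax7-EGFP)Tajb) mice aged 9 weeks, which carry EGFP under control of Pax7, and were then cultured. Both groups were starved for 6 h with 200 ng/mL of soluble BMPR1A, a decoy that binds BMP ligands, so that control cells were depleted of BMP as well. BMP6-stimulated cells then received 100 ng/mL BMP6 for 1 h and control cells received the vehicle, 4 mM HCl with 0.1% BSA, and each library was made from 100000 cells fixed with 0.1% formaldehyde for 2 min. Each H3K27ac group held 2 biological replicates, 4 of the 14 libraries in the series. A peak list gave 1 signal value per replicate for each peak, here called the first and second column of a list, because the columns did not show which of the labelled replicates they belonged to. The read depth behind a peak was not given in these lists, so the differences below rest on the spread between 4 columns and on ranks within a list.

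The 4 columns were not measured on the same footing. Peak borders of the BMP6 columns lay on grids of 140 and 70 bp, whereas those of both vehicle columns lay on a grid of 100 bp. Signal rose with peak width in each column, with a Spearman correlation over the peaks of a list between 0.724 and 0.819, and its median ran from 1027 to 1390. Signal was therefore compared after quantile normalisation, which keeps only the rank of a region within its column. Of the 82947 regions formed by merging the lists, 44866 (54.1%) joined exactly 1 peak of each list, and these shared regions carry the comparisons unless stated.

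The labelled cell type was checked on marker promoters. A promoter peak, one overlapping 2 kb on either side of the canonical start site, was present in both lists for 16 of 18 MuSC markers, and the exceptions in both lists were Calcr and Chrdl2. Their median rank lay within the strongest 2.33% of the BMP6 list and 4.57% of the vehicle list. Of 10 markers of fibro-adipogenic cells, 5 had a promoter peak in both lists, with median ranks at 33.7% and 41.1%. The endothelial list had 1 of 8, the immune list 1 of 8 after BMP6 and 2 of 8 in vehicle, and the glial and smooth muscle list 1 of 6. The part of such cells in the differences below was not tested.

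Sequences are shown for the sites where the H3K27ac landscape met the motif of the BMP SMADs, because the most shifted BMP target promoter carried 2 of them. SMAD1/5 with SMAD4 can bind a GC-rich box, GGCGCC, followed after 5 bases by GTCT. This combined motif was found, on either strand, in 14 of the 7339 pSMAD1/5/9 peaks listed after BMP6 (0.191%), and the GC-rich box itself in 1391 (18.95%). Each line gives 30 bases of the GRCm39 reference, with the box and GTCT in capitals, and the distance from the nearest start site, negative where the site lies upstream.
Id1, chr2:152581384-152581413, plus strand, 3226 bp from the start site, intergenic: gtacggaGGCGCCtggctGTCTgggcccgc
Id2, chr12:25148845-25148874, minus strand, -1571 bp from the start site, intergenic: cgcgcctGGCGCCagagaGTCTgctccggg
Id3, chr4:135867844-135867873, plus strand, -2957 bp from the start site, intergenic: ccaccctGGCGCCaggctGTCTggggctga
Id3, chr4:135875285-135875314, plus strand, 4484 bp from the start site, intergenic: gttcgctGGCGCCcggatGTCTgagctctg
Skil, chr3:31148701-31148730, plus strand, -108 bp from the start site, intergenic: cggccagGGCGCCcccagGTCTggcccgtc
Bcl7a, chr5:123483311-123483340, plus strand, 918 bp from the start site, intron: aggcctcGGCGCCctcgaGTCTgcggagtt
All 14 sites lay inside a region with H3K27ac in both lists. Others were nearest to Ninj1, Rpl10a, Pakap, Ppp1cb, Ezh2, Ifitm10 and Snx25.

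The first question was whether the acetylated genome itself differed after 1 h of BMP6. Promoter acetylation was largely shared, whereas distal peaks, those away from a start site, made up most of what was found in 1 list alone. Promoter peaks made up 15.1% of the BMP6 list and 16.8% of the vehicle list. Of the BMP6 promoter peaks, 91.8% overlapped a vehicle peak, against 68.4% of the distal ones, and of the vehicle promoter peaks 97.3% overlapped a BMP6 peak, against 84.7%. In all, 110.7 Mb were covered by both lists, which was 70.4% of the BMP6 territory and 85.2% of the vehicle territory. Regions of the BMP6 list alone numbered 21881, of which 4.41% were promoters, and those of the vehicle list alone 8945, of which 3.47% were promoters. Among 21584 protein-coding genes, 11976 had a promoter peak after BMP6, 11523 in vehicle and 11345 in both.

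Promoters were also more frequent at the top of each list than in the list as a whole, although distal peaks made up most of the strongest 10%. The median promoter peak ranked 14145 of the BMP6 list and 14515 of the vehicle list, against 43298 and 37951 for distal peaks. By column, promoters made up 48.6% and 39.8% of the strongest 10% of the BMP6 peaks and 41.1% and 40.7% of the strongest 10% of the vehicle peaks. The BMP6 columns lay on either side of the vehicle columns (mean difference 3.31 percentage points, two-sided exact permutation test over the 4 columns, p = 1.0, where 2 columns against 2 allow no p below 0.333). Without the first BMP6 column the difference was -1.10 percentage points. Among the weakest 10% the share was between 3.37% and 5.19% in the 4 columns.

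**Figure D1:**
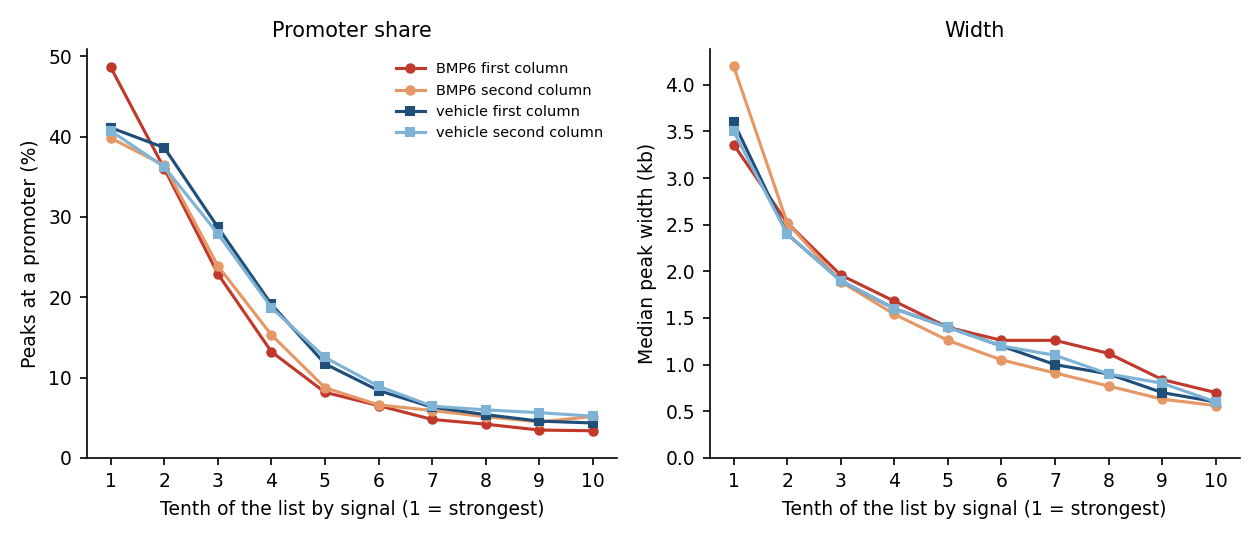
Share of promoter peaks (percent, vertical axis) in each of 10 equal classes of peaks ordered by signal (horizontal axis, class 1 is the strongest), with 1 line for each of the 2 BMP6 and 2 vehicle columns. All 4 lines fall from 39.8 to 48.6% in the strongest class to between 3.37 and 5.19% in the weakest.

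The broadest and strongest peaks of both lists included muscle loci. The first peak of the vehicle list spanned the promoters of Myf6 and Myf5, 2 myogenic regulatory factors, over 21600 bp, and it overlapped rank 14 of the BMP6 list. The second peak of both lists lay 30 to 31 kb from the start site of Msn, the gene of the membrane linker moesin, on chromosome X. The first peak of the BMP6 list covered 25830 bp at Bgn, the gene of the matrix proteoglycan biglycan, also on X. It overlapped 6 vehicle peaks, the best of which ranked 17. The X chromosome held 7.16% of the BMP6 peaks and 6.74% of the vehicle peaks, but 7 and 16 of the strongest 25.

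Peak width at shared regions was compared next. At the 9288 shared promoter regions the median width was 2100 and 1890 bp in the BMP6 columns against 1800 and 1800 bp in the vehicle columns, a difference of 195 bp (exact permutation test, two-sided, p = 0.333, the smallest value possible). The difference was 90.0 bp without the first BMP6 column and 300.0 bp without the second. Both BMP6 columns were wider than both vehicle columns at 35.9% of these regions and narrower at 10.4%. At the 35578 distal regions the medians were 1540 and 1260 bp against 1200 and 1300 bp, so the groups overlapped (difference 150 bp, p = 0.667 in the same exact test, and 10.0 bp without the first BMP6 column). Over all peaks in place of shared ones the distal difference was -10 bp. These widths moved together with the grids of 140, 70 and 100 bp given above, and the part of the grids was not tested. Width also moved with the signal difference. When shared regions were split into 3 equal groups by relative width, the median log2 difference was -0.12 in the group that was narrowest after BMP6 and 0.12 in the widest, with a Spearman correlation of 0.33 over 44866 regions whose signal and width came from the same columns.

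No shared region differed in signal past the threshold. In limma's moderated test on the quantile-normalised log2 signal, with Benjamini-Hochberg adjustment at 0.05, 0 of 44866 regions were called higher after BMP6 and 0 lower (0% in both directions), and the lowest adjusted p was 0.163. At an unadjusted p under 0.05 there were 1169 higher (2.61%) and 1152 lower (2.57%), made up of 163 (1.75%) and 69 (0.743%) at promoters and 1006 (2.83%) and 1083 (3.04%) at distal regions. The median 95% confidence interval reached 0.75 log2 units to either side of a region's difference, so smaller differences could not be told from replicate spread. The spread between columns of one group was as large as that between groups. The root mean square log2 difference over shared regions was 0.57 within BMP6, 0.55 within vehicle and 0.55 to 0.60 between groups, and the Spearman correlation was 0.845, 0.861 and 0.828 to 0.855. The p-values measure the spread between these 4 cultures only.

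A region was said to be non-overlapping when both of its BMP6 values lay on one side of both vehicle values. That held for 7374 shared regions in the direction of BMP6 (16.4%) and 7608 in the direction of vehicle (17%), and these shares are the background for the genes below. At promoters the counts were 1724 (18.6%) and 1029 (11.1%), and at distal regions 5650 (15.9%) and 6579 (18.5%). The median log2 difference was 0.04 at promoters and -0.02 at distal regions. Averaged over promoter regions, the columns read 11.34 and 11.23 after BMP6 against 11.26 and 11.21 in vehicle, which overlapped (difference 0.05, exact permutation test, two-sided, p = 0.667). The distal columns read 10.36 and 10.39 against 10.39 and 10.40 (difference -0.01, p = 0.667 in the same exact test).

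The scale decided the balance of directions. When a region's rank was taken as its percentile within the whole list, which gives the longer BMP6 list more peaks below a given region, 2808 regions had an unadjusted p under 0.05 in the higher direction and 381 in the lower. On that scale the median difference was 0.39 logit units, and 0 regions passed adjustment. The higher share of such regions was 88.1% there, 50.4% on the quantile-normalised scale and 40.2% without the second BMP6 column. A statement that promoters or BMP genes lay higher or lower is therefore relative to the shared regions as a whole.

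The promoters with the largest differences were a mixed group of genes, among which Id3 was the one classical BMP target. They were the 10 largest in each direction among non-overlapping shared promoters in the stronger 22433 regions, so their non-overlap was part of the choice and is a description. The lowest adjusted p among them was 0.525 in limma's test. Id3 encodes an inhibitor of bHLH factors such as MyoD. Its region (chr4:135860901-135876720) ranked 244 and 41 of the 44866 shared regions in the BMP6 columns and 2227 and 1813 in the vehicle columns. All 4 ranks were near the top, and both BMP6 ranks stood above both vehicle ranks. The log2 difference was 0.95 ± 0.33 (SE, 2 columns per group, 95% interval 0.25 to 1.65) with an adjusted p of 0.870 in limma's test. Peak width was nearly the same, 15820 bp after BMP6 and 15800 bp in vehicle. The region held 6 pSMAD1/5/9 peaks after BMP6, with 9 GC-rich boxes in them, 2 of which were the combined motifs shown above.

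Shared promoters outside this choice could differ by more, up to 1.77 log2 units. Within the choice the largest positive difference was that of AA414768 on the X chromosome (1.17 log2 units, adjusted p = 0.525 in limma's test). AA414768 ranked 4235 and 4752 after BMP6 and 21211 and 19045 in vehicle. Its columns were close within each group and far apart between them. Csf1, the growth factor of macrophages, differed by 1.00, Ptpdc1, a phosphatase gene, by 1.01, Mphosph6, a gene of the RNA exosome, by 0.98 and Scarf2, a scavenger receptor gene, by 0.95. Vash2, which encodes a tubulin carboxypeptidase, ranked 38 and 49 against 260 and 2634, with 1 vehicle column much nearer to the BMP6 columns than the other (0.91, and 0.53 without the second vehicle column). Plxna3, a semaphorin co-receptor gene on X, differed by 0.94, Adgrg3 by 0.86 and Gatb by 0.85. Without 1 column Csf1 fell to 0.49 (the second BMP6 column left out) and Adgrg3 to 0.44 (the first vehicle column left out). The Csf1 region overlapped the 2 kb window but did not cover the start site, and its middle lay at -2794 bp.

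In the other direction Zfp954, a zinc finger gene, had the largest difference, of -1.44 log2 units. Its region overlapped the 2 kb window but did not cover the start site, and the same held for Anxa11 and Olfml2a below. The middle of these regions lay 3458, 3630 and 2506 bp from the start site. The shared promoter of Sbds, a ribosome maturation factor, and Tyw1 ranked 5204 and 11867 after BMP6 against 719 and 768 in vehicle (-1.03). Its vehicle columns were close together, and its BMP6 columns were lower and less alike. Zc3h12a, which encodes the RNase Regnase-1, ranked 3073 and 66 against 35 and 17 (-0.87). Here the second BMP6 column sat next to the vehicle columns and the difference was -0.22 without the first. Fap, a fibroblast protease gene, Anxa11 and the promoter of Fgf21 and Fut1 each differed by -1.02, Clic3 with Paxx by -0.99, Olfml2a by -0.89, the succinate receptor gene Sucnr1 by -0.83 and Gba2 with Rgp1 by -0.80. Without the first vehicle column the differences were -0.60 at Anxa11, -0.43 at Clic3 with Paxx and -0.30 at Olfml2a, and without the first BMP6 column that of Sucnr1 was -0.51.

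Distal regions were chosen in the same way, among non-overlapping regions of the stronger 22433, and regions outside that choice could differ by more. The largest positive difference of the choice lay 24440 bp from the start site of Cd99l2, an adhesion molecule gene on X. The region ranked 5429 and 7017 after BMP6 and 42617 and 35212 in vehicle, a log2 difference of 2.36 with the lowest adjusted p of all regions, 0.163 in limma's test. It stood among the stronger regions in both BMP6 columns and among the weakest in both vehicle columns. Its peak spanned 2310 bp after BMP6 and 700 bp in vehicle. Signal rose with width in every column, and the part of width in this difference was not tested. With the robust variance prior this was the only region called, with an adjusted p of 0.0183. Chromosome X as a whole was more variable. Of its 2145 shared regions 9.93% differed by more than 2-fold, against 2.44% of the autosomal ones, and the root mean square difference between replicate columns was 0.721 in both groups, against 0.562 and 0.540 on the autosomes. Between groups it was 0.773 to 0.797 on X. The non-overlapping shares on X were 17.8% and 18%, close to those of all regions, and the shares with an unadjusted p under 0.05 in limma's test were 7.6% higher and 7.04% lower.

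The next largest of the choice lay 145441 bp downstream of the start site of Smad7, the gene of an inhibitory SMAD, on chromosome 18. It ranked 2942 and 4427 after BMP6 and 15990 and 35201 in vehicle. The BMP6 columns lay close together and the vehicle columns well below them, unlike each other. The log2 difference was 1.61 (95% interval 0.91 to 2.32) with an adjusted p of 0.525, and the peak spanned 4970 bp after BMP6 and 1100 bp in vehicle. A SMAD4 peak overlapped it after BMP6 and not in vehicle. Without the first vehicle column the adjusted p was 0.000124, and without the second the difference was 1.01 with an adjusted p of 0.680. Regions near Pdhb, Cd83 and Atp6ap2 differed by 1.59, 1.58 and 1.57. Without the second vehicle column they differed by 1.92, 2.08 and 2.01, and without the first by 1.26, 1.08 and 1.13. Their peaks spanned 3290, 1330 and 3080 bp after BMP6 and 1700, 1200 and 1600 bp in vehicle. The part of width was not tested here either. In the other direction, regions near Socs6 differed by -1.59, near Sh3bgrl by -1.58, near Tbl1x by -1.45, near Itm2a by -1.41 and near Map1lc3a by -1.36. Without the second BMP6 column the difference was -0.62 near Tbl1x and -0.67 near Itm2a. These distal regions are named by the nearest start site, and whether they act on that gene was not measured.

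**Figure D2:**
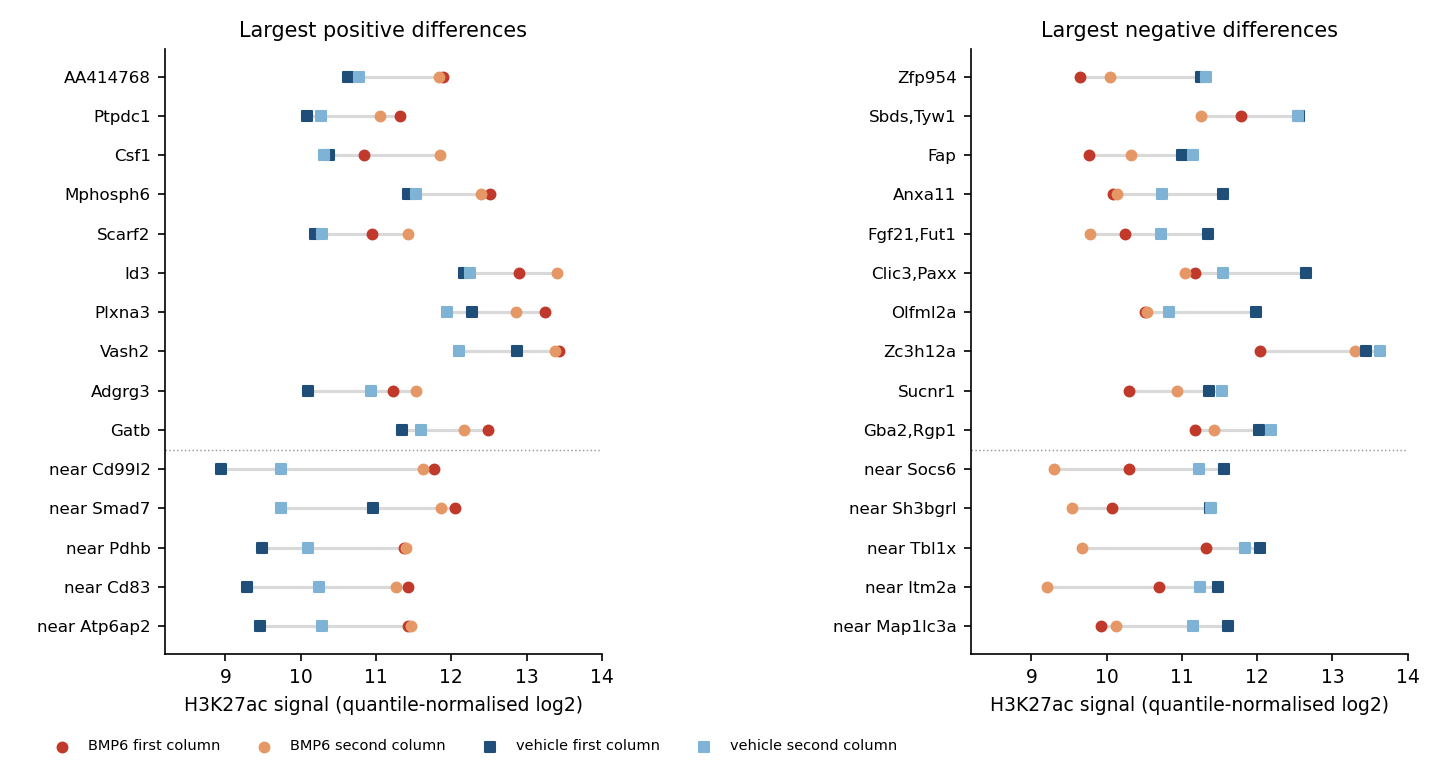
Quantile-normalised log2 H3K27ac signal (horizontal axis) of the shared promoter (above the dotted line) and distal regions (below it, named by the nearest gene) with the largest positive and negative differences, with 1 point for each BMP6 column (circles) and vehicle column (squares). BMP6 and vehicle points do not overlap because the regions were chosen that way, and the gap is 2.36 near Cd99l2 and 0.95 at Id3.

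The BMP response genes were then read as a list of 39, made up of SMAD targets, inhibitors, receptors and SMADs. Of these, 22 had a one-to-one promoter region, and 8 of the 22 (36.4%) were non-overlapping in the direction of BMP6 and 0 in the other, beside 18.6% and 11.1% of all shared promoters. Differences were positive for 15 and negative for 7, with a median of 0.20, beside 5333 positive, 3955 negative and 0.04 over all shared promoters. None passed the adjusted threshold in limma's test, and 4 of the 22 had an unadjusted p under 0.05, namely Id3, Smad9, Smad6 and Snai2. Of all 9288 shared promoters, 232 had an unadjusted p under 0.05 in that test, 163 of them higher (1.75%) and 69 lower (0.743%). The median was -0.00209 without the first BMP6 column, so it rested on that column. A further 10 genes had peaks that the lists cut into different pieces, and for these the pieces were merged and the strongest value of each column was taken. Over the 32 genes read from merged regions the median was 0.23, and 10 were non-overlapping in the direction of BMP6 and 0 in the other, beside 17% and 10.8% of merged promoter regions. Tnfrsf11b had a promoter peak after BMP6 alone. Grem1, Dlx3, Msx1, Msx2, Hhex and Bmp4 had none in either list.

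Among the inhibitory and receptor-regulated SMADs, Smad6, whose product blocks BMP receptors, ranked 1632 and 5448 after BMP6 and 8418 and 9950 in vehicle (0.58 ± 0.27 log2, SE, unadjusted p = 0.0434 and adjusted p = 0.954 in limma's test). Smad9, one of the phosphorylated SMADs, ranked 11719 and 8451 against 25719 and 14479 (0.67 ± 0.30, adjusted p = 0.954). In both genes the groups did not overlap, and in Smad9 the vehicle columns were far apart. Smad6 differed by 0.32 without the first BMP6 column and Smad9 by 0.31 without the first vehicle column. Smad7 was covered by 1 peak of 18410 bp after BMP6 and by pieces in vehicle, and its merged ranks of 2084 and 651 against 654 and 5046 overlapped (0.20 ± 0.39). Smad1 was non-overlapping in the direction of BMP6 (0.33 ± 0.30), as was Bmpr1a, the type I receptor gene (0.26 ± 0.29). Bambi, the gene of a pseudoreceptor, was non-overlapping as well (0.31 ± 0.26, and 0.20 without the first BMP6 column), whereas the antagonist Nog differed by -0.02 ± 0.29 and the SMAD corepressor Skil by -0.12 ± 0.36.

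The ID genes did not behave alike. Id1 stood at rank 132 of the BMP6 list and 4470 of the vehicle list, but that gap came with a different cutting of the locus. The BMP6 list had 1 peak of 20440 bp from 152565421 to 152585860 on chromosome 2, and the vehicle list had the piece at the start site from 152575001 to 152585100 as 1 of 3 pieces, the strongest of them at list rank 807. Read as a merged region, Id1 ranked 878 and 97 after BMP6 and 1150 and 655 in vehicle among the 52121 merged regions, so the groups overlapped (0.36 ± 0.45). Id2 ranked 640 and 526 against 479 and 1013 in the same way (0.07 ± 0.43). Id4 ranked 16133 and 13482 against 23273 and 27954 and was non-overlapping (0.62 ± 0.31). Merged values depend on how each list cut its peaks, and signal rose with width in every column.

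Of the transcription factor genes of the list, Dlx2, a homeobox gene, had the largest merged difference, with ranks 13525 and 20469 after BMP6 and 41916 and 28446 in vehicle (1.04 ± 0.36, unadjusted p = 0.00897 in limma's test). In that test over the 52121 merged regions 0 passed adjustment, and an unadjusted p under 0.05 was found for 1420 higher (2.72%) and 1343 lower (2.58%), among promoters for 171 (1.61%) and 78 (0.732%). Snai2, which encodes a repressor of MyoD target enhancers, ranked 2555 and 1328 against 6707 and 6026 (0.56 ± 0.26), and Snai1 ranked 2362 and 2727 against 3940 and 5387 (0.27 ± 0.26). Both were non-overlapping. Atoh8, a bHLH gene, ranked 6883 and 3413 against 6079 and 20519 at its promoter. One vehicle column there was level with the BMP6 columns (0.62 ± 0.31, and 0.11 without the second vehicle column).

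The surroundings of 25 singly described genes were read as well, over shared regions within 20 kb of the start site. At Atoh8 all 9 shared regions had a difference of 0.00 or above, 5 were non-overlapping in the direction of BMP6 and 0 in the other, and the median was 0.62 with a range up to 0.96. These 9 regions are neighbours at one locus and not replicates. Over the 10 BMP genes among the 25, 17 of 42 shared regions (40.5%) were non-overlapping in the direction of BMP6 and 4 (9.52%) in the other, beside 16.4% and 17% of all shared regions. Atoh8 gave 5 of these 17. For the 7 Notch genes the counts were 8 (33.3%) and 3 (12.5%) of 24. They were 4 (23.5%) and 2 (11.8%) of 17 for the 5 myogenic regulators, and 0 and 1 (12.5%) of 8 for Fos, Jun and Egr1. The share in the direction of BMP6 was thus above that of all shared regions for the Notch genes too. Differences were positive at 31 of the 42 BMP gene regions but at only 10 of the 24 Notch gene regions. Notch1 gave 4 of the 8 non-overlapping Notch gene regions, and the median over its locus was -0.08. These surroundings include promoters, and of all shared promoters 18.6% and 11.1% were non-overlapping. The lowest adjusted p in these surroundings was 0.870.

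**Figure D3:**
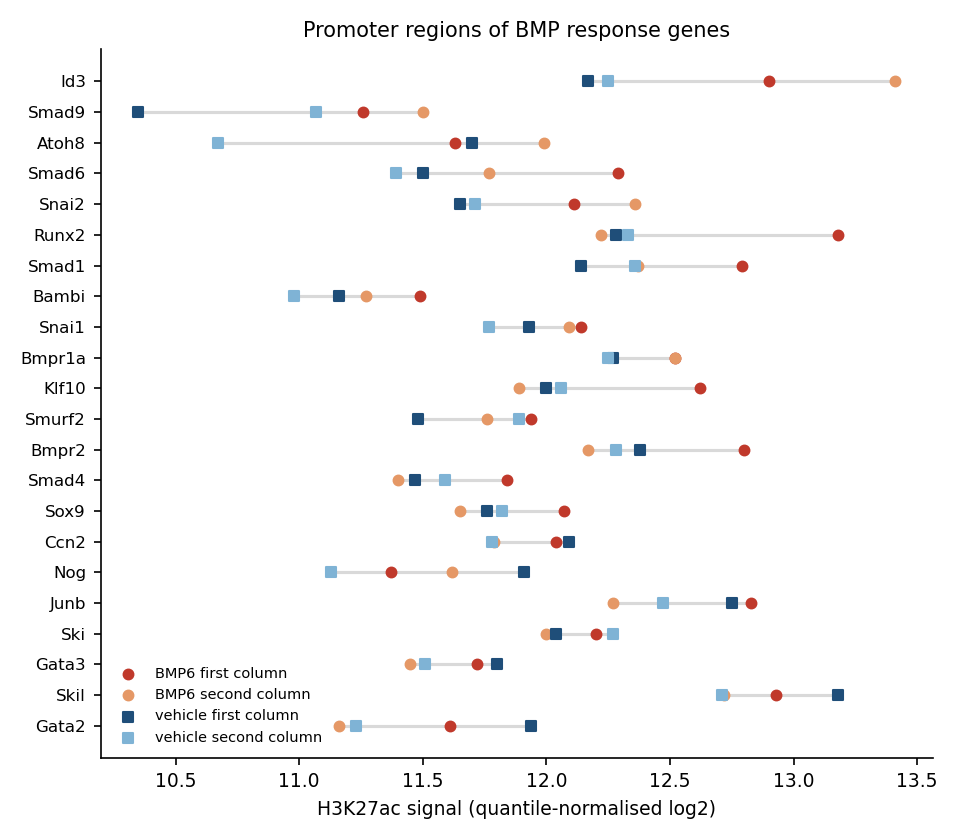
Quantile-normalised log2 H3K27ac signal (horizontal axis) at the promoters of BMP response genes, with 1 point for each BMP6 column (circles) and vehicle column (squares). At Id3, Smad6, Smad9, Bambi, Snai1 and Snai2 both BMP6 points lie above both vehicle points, whereas at Skil and Nog the groups overlap.

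Promoters of Notch genes were read in the same way. Notch receptors are cleaved upon contact with ligands on neighbouring cells, and their intracellular part drives HES and HEY repressors with RBPJ, which keeps MuSCs from differentiating. Of 24 one-to-one promoters, 7 differences were positive and 17 negative, with a median of -0.15, and 4 (16.7%) and 5 (20.8%) were non-overlapping in the direction of BMP6 and vehicle, beside 18.6% and 11.1% of all shared promoters, of which 5333 differences were positive and 3955 negative. The median was -0.06 without the first BMP6 column and -0.04 without the second vehicle column, and over 33 merged regions it was -0.08, with 14 positive and 19 negative. The ligand Jag1 ranked 3777 and 5878 after BMP6 against 9499 and 11698 in vehicle (0.49 ± 0.25, non-overlapping). The ligand Dll1 differed by -0.37 ± 0.25 and was non-overlapping in the other direction. The receptor Notch1 differed by -0.02 ± 0.29. Among the targets, Heyl ranked 2346 and 1418 against 2825 and 4210 and was non-overlapping (0.26 ± 0.27, and 0.16 without the second BMP6 column). Hes1 ranked 11690 and 5603 against 14886 and 1995, and Hey1 7010 and 1901 against 3146 and 2249. In both the groups overlapped, with differences of -0.12 ± 0.33 and -0.17 ± 0.28. The glycosyltransferase gene Lfng, whose product modifies Notch receptors, ranked 35763 and 26839 against 41738 and 38528 among merged regions (0.50 ± 0.41), so its promoter was weakly acetylated in all 4 columns.

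Myogenic regulators held some of the strongest acetylation in the genome, and their one-to-one promoters gave no common direction. The peak over Myf5 and Myf6 ranked 279 and 1 after BMP6 and 5 and 1 in vehicle among shared regions (-0.52 ± 0.64). Pax7, the defining factor of MuSCs, stood at rank 17 of the BMP6 list in a peak of 65100 bp and at rank 68 of the vehicle list in a peak of 38800 bp. Its merged ranks of 180 and 20 against 170 and 38 overlapped (0.10 ± 0.64). Myod1 and Myog, which encode the factors of commitment and terminal differentiation, had merged differences of 0.44 ± 0.37 and -0.53 ± 0.39. Over 11 one-to-one regulators, 5 differences were positive and 6 negative, with 1 (9.09%) non-overlapping in each direction, beside 18.6% and 11.1% of all shared promoters, and a median of -0.04. The median was 0.215 without the first BMP6 column. Over 18 merged regions 5 differences were positive and 13 negative, with a median of -0.1 and 1 non-overlapping in each direction. Of all 10650 merged promoter regions, 6047 differences were positive and 4603 negative. Mymk, the gene of the fusion protein myomaker, differed by -0.08 ± 0.27.

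Promoters of sarcomere and differentiation genes were more often negative than positive. Of 17 one-to-one promoters 4 differences were positive and 13 negative, the median was -0.14, and 1 (5.88%) and 6 (35.3%) were non-overlapping in the direction of BMP6 and vehicle, beside 18.6% and 11.1% of all shared promoters. The median was -0.06 without the second BMP6 column and -0.23 without the first. The 6 were Ckm, the muscle creatine kinase gene (-0.46 ± 0.26), Tnni2, of fast troponin I (-0.50 ± 0.34), Casq2, of the calcium store protein calsequestrin (-0.33 ± 0.30), Neb, of nebulin (-0.23 ± 0.27), the acetylcholine receptor subunit gene Chrnd (-0.15 ± 0.27) and the myosin gene Myh1 (-0.14 ± 0.27). The 1 in the direction of BMP6 was Cacna1s, the calcium channel gene (0.48 ± 0.27). These genes were named after their values were seen, and none had an unadjusted p under 0.05 in limma's test. The immediate early and AP-1 genes had 18 one-to-one promoters, 5 of them (27.8%) non-overlapping in the direction of BMP6 and 0 in the other, with a median of 0.08, which was 0.03 without the first BMP6 column, 0.19 without the second and 0.16 without the first vehicle column. Fos differed by 0.12 ± 0.29, Jun by 0.08 ± 0.32 and Egr1 by 0.09 ± 0.26. Of 15 cell cycle promoters 7 differences were positive and 8 negative, with a median of -0.02.

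Shared regions were next grouped by the SMAD peaks of the same cells, a grouping that did not use the H3K27ac values. Every shared region holds an H3K27ac peak in both lists by definition, so SMAD sites elsewhere are not covered. Among shared regions, those that gained pSMAD1/5/9 had above-average signal in both groups. The part of peak width in this was not tested. At 3906 shared regions with a pSMAD1/5/9 peak after BMP6 and none in vehicle, the mean log2 signal was 11.75 and 11.66 in the BMP6 columns and 11.69 and 11.69 in the vehicle columns, against 10.57 over all shared regions in each column. The BMP6 columns lay on either side of the vehicle ones, with a difference of 0.02 (two-sided exact permutation test, p = 1.0). Of these regions 15.9% and 13.1% were non-overlapping in the direction of BMP6 and vehicle, beside 16.4% and 17% of all. At the 1640 promoters among them the shares were 16.7% and 9.7%, beside 18.6% and 11.1% of all shared promoters. At the 2266 distal ones they were 15.4% and 15.5%, beside 15.9% and 18.5% of all distal regions. Centred on the median in place of quantile normalisation, the difference over the 3906 regions was -0.02.

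The weakly acetylated sites among them were few. Only 180 of the 3906 belonged to the weaker 22433 shared regions, with means of 10.38 and 9.994 after BMP6 and 10.03 and 9.949 in vehicle (difference 0.20, exact permutation test, two-sided, p = 0.667). Non-overlap in the direction of BMP6 held for 31.7% of the 180 and in the other direction for 11.7%, beside 17.7% and 18.4% of all weaker regions. When all shared regions were split into 10 equal classes by mean signal, with class 1 the strongest, the median differences of these sites were 0.35 in class 7 (53 regions) and 0.35 in class 8 (31 regions). The first BMP6 column of the 180 lay above both vehicle columns and the second between them, so the difference rested on 1 column. The 180 were not tested against the stronger sites.

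Regions were grouped by SMAD4 as well. At 2670 regions with SMAD4 after BMP6 alone and no pSMAD1/5/9, the columns read 11.27 and 11.21 against 11.18 and 11.18, which did not overlap (difference 0.06, exact permutation test, two-sided, p = 0.333, the smallest value possible). The difference was 0.03 without the first BMP6 column and 0.09 without the second, and centred on the median it was 0.03 with overlapping columns. At the 925 promoters among them the columns overlapped, at 11.61 and 11.50 against 11.51 and 11.47. Of the 2670, 19.4% and 12.1% were non-overlapping in the direction of BMP6 and vehicle, beside 16.4% and 17% of all shared regions. At the 925 promoters the shares were 19.7% and 10.7%, beside 18.6% and 11.1% of all shared promoters. At the 1745 distal ones they were 19.2% and 12.8%, beside 15.9% and 18.5% of all distal regions. At the 451 of the 2670 in the weaker 22433 the difference was 0.15 (p = 0.333 in the exact test). There 26.8% and 12.6% were non-overlapping in the direction of BMP6 and vehicle, beside 17.7% and 18.4% of all weaker regions. At 1024 regions with SMAD4 in vehicle alone the columns overlapped, at 11.32 and 11.24 against 11.34 and 11.31 (difference -0.05, p = 0.667 in the exact test, and -0.00988 without the second BMP6 column). At the 362 promoters among them the difference was 0.01 (p = 0.667 in the exact test). At the 662 distal ones the columns read 11.18 and 11.09 against 11.21 and 11.21, a difference of -0.08 (p = 0.333 in the exact test), and 10.4% and 21.6% were non-overlapping, beside 15.9% and 18.5% of all distal regions. At 1216 regions with SMAD4 in both lists the columns overlapped (p = 1.0 in the exact test). Regions without a SMAD peak, 35500 in number, differed by -0.00429 (p = 1.0 in the exact test).

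**Figure D4:**
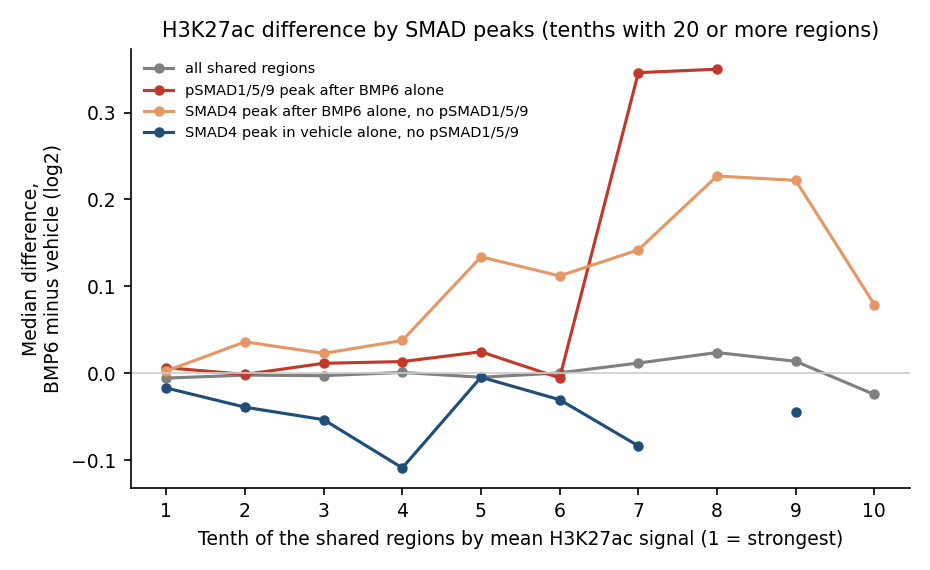
Median log2 difference in H3K27ac signal, BMP6 minus vehicle (vertical axis), by class of mean signal (horizontal axis, 10 equal classes, 1 is the strongest) for all shared regions and for those with pSMAD1/5/9 after BMP6 alone, SMAD4 after BMP6 alone or SMAD4 in vehicle alone. Points of under 20 regions are left out. The pSMAD1/5/9 line stays near 0 in the strong classes and reaches 0.35 in classes 7 and 8, and the line of SMAD4 after BMP6 alone reaches 0.23 in class 8.

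At the sites with the combined SMAD motif the H3K27ac differences were not uniform. Id3, with 2 sites, and Bcl7a, a chromatin remodeller subunit gene, were non-overlapping in the direction of BMP6. Bcl7a ranked 2071 and 823 against 4832 and 5694 among shared regions (0.57 ± 0.27). Skil, whose site at the start of the gene lay in a pSMAD1/5/9 peak in vehicle as well, ranked 220 and 438 against 98 and 451, so it was near the top in all columns. Ezh2, a Polycomb methyltransferase gene, ranked 450 and 2320 against 2203 and 2052, overlapping (0.24 ± 0.30).

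Sequence features were read on both strands in 1 window of 500 bp per shared region, centred midway between the BMP6 and vehicle summits. At distal regions GGCGCC was found in 3.14% of all windows, in 3.89% of those non-overlapping in the direction of BMP6 and in 2.10% in the direction of vehicle. The palindromic SMAD element GTCTAGAC was found in 0.585%, 0.743% and 0.426%, and the AP-1 site TGANTCA in 33.1%, 36.2% and 29.3%. The E-box CAGCTG, bound by MyoD and its relatives, ran the other way, with 46.7%, 39.0% and 52.9%. TGGGAA, the core bound by RBPJ, was level at 43.3%, 43.6% and 42.8%. GGCGCC is contained in the combined motif above, and the other motifs can fall in the same window. At promoters the shares were 34.2%, 38.7% and 27.4% for GGCGCC and 28.4%, 23.8% and 34.4% for the E-box. For TGANTCA they were 9.75%, 8.47% and 13.1%, the opposite of the distal order, while the median GC content was 63.8%, 64.6% and 61.4%. The part of base composition was not tested.

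The same features were compared over columns. Distal regions with the E-box were more acetylated than those without in all 4 columns, by 0.22 and 0.15 log2 units after BMP6 and by 0.27 and 0.25 in vehicle. The gap was smaller in both BMP6 columns (difference -0.07, exact permutation test, two-sided, p = 0.333, the smallest possible), and this held in the stronger and weaker regions taken apart (-0.08 and -0.06). For GGCGCC the gap was 0.33 and 0.24 after BMP6 against 0.23 and 0.17 in vehicle (difference 0.08, p = 0.333 in the same exact test). In the stronger regions taken apart its columns did not overlap either (0.09), and in the weaker ones they did, at 0.17 and 0.05 against 0.07 and -0.02 (exact p = 0.667). For TGANTCA it was 0.28 and 0.26 against 0.20 and 0.25 (0.05, exact p = 0.333), with the second vehicle column next to the BMP6 columns. For TGGGAA the columns overlapped (exact p = 1.0). The presence of a motif is a match of letters and does not show that a factor was bound.

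**Figure D5:**
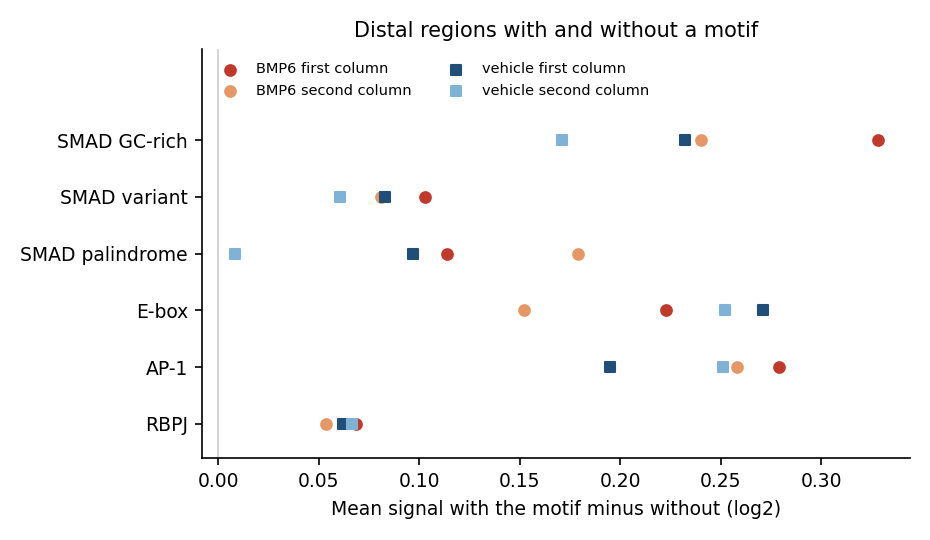
Mean log2 H3K27ac signal of distal shared regions with a motif minus that of regions without it (horizontal axis), by motif, with 1 point for each BMP6 column (circles) and vehicle column (squares). The E-box points of BMP6 (0.22 and 0.15) lie below those of vehicle (0.27 and 0.25), and those of the GC-rich SMAD box lie above them.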

How the data were processed

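For each antibody the authors reduced all libraries to the same number of reads. They aligned with Bowtie2 2.5.4 to the GRCm39 assembly, used SAMtools 1.21, called peaks per replicate with JAMM and kept the peaks reproducible at an irreproducible discovery rate (IDR) of 0.05, ranked by signal. The deposited lists hold for each peak a signal score per replicate and their sum, and IDR values as −log10, which the authors' procedure computed. Total reads per library were not given in these lists. The members and the gene lists were chosen with earlier results of these data known.

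Shared regions are peaks that overlap exactly 1 peak of the other list by at least 1 bp. Their log2 scores were quantile-normalised over 4 columns and fitted with limma 3.58.1 (R 4.3.3, eBayes with a mean trend, prior degrees of freedom 15.6), with Benjamini-Hochberg adjustment over all 44866 regions. Group means were compared by exact permutation of the 4 columns. Promoters were 2 kb on either side of the canonical GENCODE start of a protein-coding gene. Named regions were the 10 promoter and 5 distal regions with the largest difference in each direction among non-overlapping regions of the stronger 22433. SMAD lists served only to group regions. Motifs were counted in the GRCm39 reference. Python 3.11.15, numpy 2.4.6, pandas 2.3.3, scipy 1.17.1, pysam 0.24.0 and matplotlib 3.10.9 were used. Alternatives changed the scaling, variance prior, pairing of peaks, IDR threshold, filter, promoter definition and columns used. Single genes that are not named are not reported here.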

Additional observations from a re-analysis of the deposited data

How the results depend on the processing

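Of 14 alternatives to the fit over all shared regions, 11 called no region. The robust prior called 1 region higher, and leaving out 1 column gave 0 to 15, namely 6 without the first vehicle column and 15 without the second, each fit assuming that the lone column varied like the other group. No alternative called a region lower. Every region that an alternative called was distal, and most lay on chromosome X, where replicate columns differed more than on the autosomes. Regions with an unadjusted p under 0.05 ranged from 384 to 2808 higher and from 381 to 1440 lower. The promoter share of called regions had no value, since no region was called. Of 423 values of 47 single regions, 408 kept their sign, and none of the 30 named by size changed it. The 30 had been chosen as non-overlapping, so leaving out a column could hardly reverse them. A changed variance prior leaves every difference as it was. These counts of signs are therefore a description and no test of the differences. Reversed values were the distal width over all peaks (-10.0 bp, and 10.0 to 290 bp without 1 column), the promoter share of the strongest 10% (-1.10 to 7.73 percentage points without 1 column) and the difference at pSMAD1/5/9 regions (-0.0237 centred on the median, -0.0318 to 0.061 without 1 column). The causes were not tested. Medians of gene lists, an alternative chosen after seeing the data, reversed without the first BMP6 column for the BMP genes (range without 1 column -0.00209 to 0.301) and myogenic regulators (-0.188 to 0.215, with 0.0215 without the second vehicle column). For cell cycle genes they reversed on the whole-list percentile (0.202), without the second BMP6 column (0.00864) and without the first vehicle column (0.101, range -0.0566 to 0.101). Groupings by SMAD4 and by signal strength and the merged values per gene were also added after seeing the data. No paired analysis was possible because the replicate columns carry no replicate number.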
